A study of Homo sapiens with 9 samples.

Results

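Mucins and trefoil factors are the main proteins of the mucus that covers epithelia, bile ducts included. The genes described here are TFF1, TFF2, TFF3, MUC1, MUC4, MUC5AC, MUC5B, MUC6, MUC13 and MUC16. They were chosen by name, with earlier results of these data known. Every probe set (a group of array probes for one transcript) that the platform annotation pairs with such a name was taken. All 10 genes were found, with 23 probe sets, among 19775 genes and 54613 probe sets tested. No probe set pairs one of these genes with another gene.

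HuCCT1 is a human cholangiocarcinoma (bile duct cancer) line, and its RNA was profiled on microarrays of 1 colour. In the first group, 5 arrays carried RNA of cells transfected with a vector that overexpresses YAPS127A, a mutant of the transcriptional co-activator YAP1 that the design text calls constitutively active. In the other group, 4 arrays carried RNA of cells transfected with the empty vector. Both groups were kept in the same serum-supplemented medium. The sources used here do not give the time from transfection to harvest, or whether cells were a clone or a pool. Nor do they say that the arrays of a group stand for separate cultures, so the spread behind each p-value may be technical. YAP1 itself was not called at any of its 3 probe sets, and at the brightest it had 12.71 ± 0.07 (SD, n = 5) in YAPS127A cells, against 12.56 ± 0.06 (SD, n = 4) with the empty vector (limma adjusted p = 0.121). Whether those probes can read the vector's transcript was not tested.

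Mucins are large proteins whose serine- and threonine-rich repeats carry dense O-linked sugars. Transmembrane mucins (MUC1, MUC4, MUC13 and MUC16 here) stay anchored in the apical membrane, while gel-forming mucins (MUC5AC, MUC5B and MUC6) are stored in granules, secreted and crosslinked by disulfide bonds. Trefoil factors are small secreted peptides with a cysteine-rich fold that are released together with mucins and promote repair of the epithelial surface. MUC5AC is scarce in healthy bile ducts, and MUC1 and MUC5AC are often found in cholangiocarcinoma.

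In YAPS127A cells, 6 of the 10 genes fell and none rose. The trefoil factor TFF1 fell most, 2.75-fold, and the transmembrane mucins MUC16, MUC1 and MUC13 fell 2.15-fold, 2.08-fold and 1.83-fold. TFF2 and MUC5AC fell by smaller amounts, while TFF3, MUC4, MUC5B and MUC6 were not called. These counts take each gene at its brightest probe set, call a change in limma at an adjusted p (Benjamini-Hochberg over all probe sets) below 0.05, and give folds on the deposited log2 scale. Over all genes, 14.2% were called lower and 14.5% higher. Bright probe sets are called more often, with 12071 called in either direction when only the 27306 above the median signal were tested. At the brightest probe set, all of the 10 genes but TFF3 and MUC5B were above that median. Of the 10 genes, 3 were called with a fall of at least 2-fold, against 1.52% of all genes. The median log2 difference of the 10 genes was -0.44, against 0.0048 over all genes. Since the 10 genes were chosen with earlier results known, these shares and medians do not test an excess among them.

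At the level of probe sets, 13 of 23 were called lower and 0 higher, against 12.0% lower and 11.9% higher among all probe sets (23.9% called in either direction). In 11 of the 23, every YAPS127A array lay below every empty vector array, as did 11.0% of all probe sets. In 0 of the 23 did every YAPS127A array lie above, as did 11.2% of all probe sets. Of the 23 probe sets, 12 had a mean signal above 5.96, the median of all probe sets on the log2 scale. In a bulk sample, fewer cells that make a transcript and less of it per cell cannot be told apart.

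**Figure D1:**
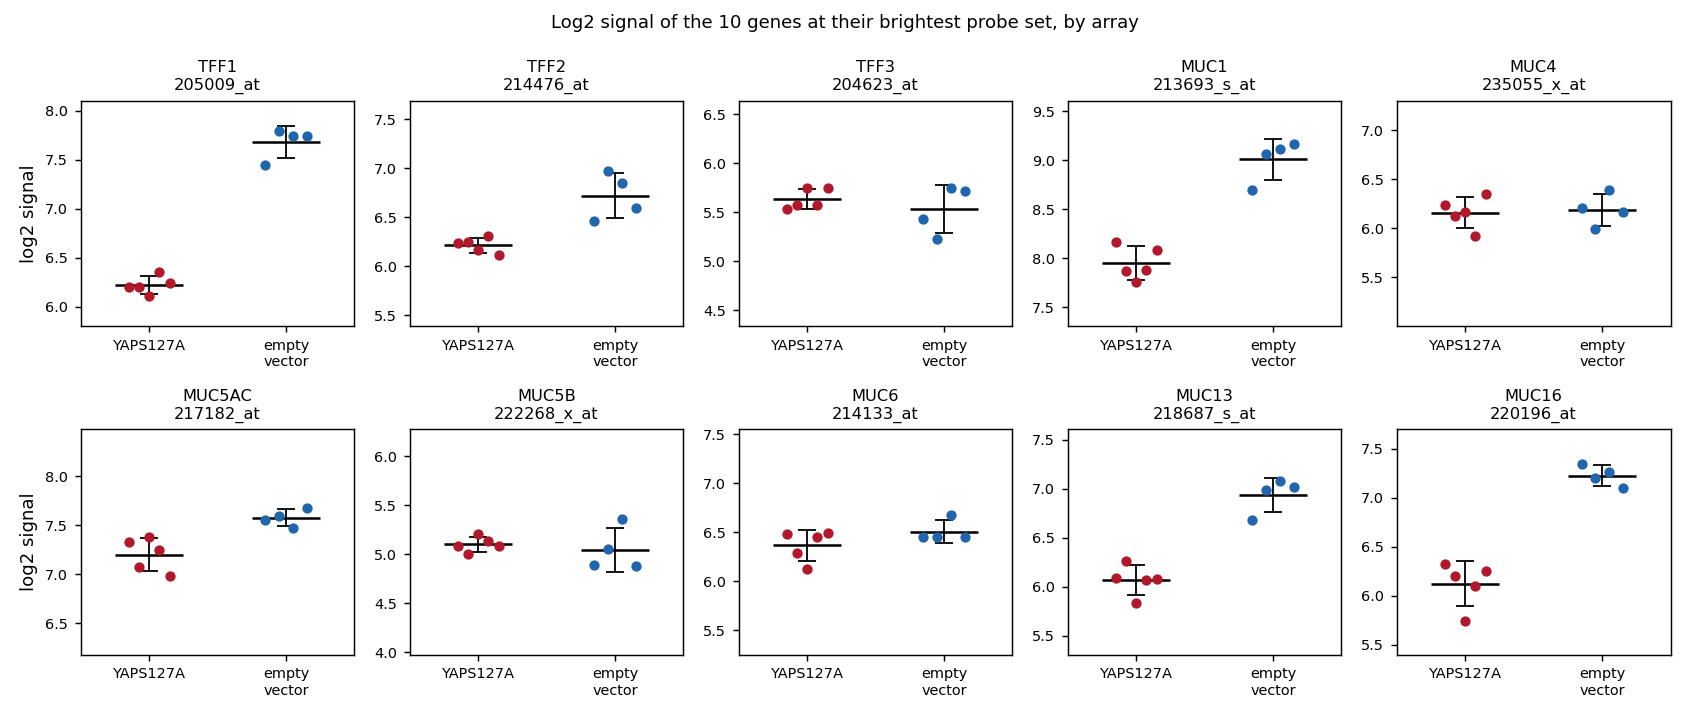
Log2 signal of each gene at its brightest probe set on the 5 YAPS127A arrays (red, left) and the 4 empty vector arrays (blue, right), with the group mean (long bar) and SD (error bar). Each panel spans the same range of log2 units around its own centre. TFF1, TFF2, MUC1, MUC5AC, MUC13 and MUC16 show no overlap between groups, and the other panels do.

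Among the trefoil factors, the log2 change differed from gene to gene. TFF1, a gastric-type peptide and a classical oestrogen-responsive gene, had log2 signals of 6.20, 6.21, 6.11, 6.36 and 6.24 on the YAPS127A arrays, against 7.45, 7.80, 7.75 and 7.74 on the empty vector arrays. All 5 YAPS127A arrays lay more than 1 log2 unit below the lowest empty vector array. Its mean was 6.22 ± 0.09 (SD, n = 5) in YAPS127A cells, against 7.68 ± 0.16 (SD, n = 4) with the empty vector, a log2 difference of -1.46 (SE 0.08, 95% interval -1.64 to -1.28, limma adjusted p = 2.44e-07).

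TFF2, the trefoil peptide of gastric mucous neck cells and deep glands, had signals of 6.24, 6.25, 6.16, 6.31 and 6.11 in YAPS127A cells, against 6.47, 6.97, 6.85 and 6.60 in empty vector cells. The groups did not overlap, with a gap between them smaller than the range of the empty vector arrays. Its log2 difference was -0.51 (SE 0.10, 95% interval -0.73 to -0.29, limma adjusted p = 0.00273), or 1.42-fold lower. The mean of TFF2 in YAPS127A cells was 6.21, beside 6.22 for TFF1, while the empty vector means were 6.72 and 7.68. Whether both had reached a background level was not tested, so a smaller response and a lower starting signal cannot be told apart.

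TFF3, the trefoil peptide of intestinal goblet cells and also of bile duct epithelium, had signals of 5.54, 5.57, 5.75, 5.57 and 5.75 in YAPS127A cells, against 5.43, 5.23, 5.75 and 5.72 in empty vector cells. The groups overlapped, and all its values were below the median signal of all probe sets. The log2 difference was +0.10 (SE 0.11, 95% interval -0.13 to 0.34, limma adjusted p = 0.578), an interval that leaves out a fall in signal as large as that of TFF2. The empty vector mean of TFF3 was 5.53, beside 6.22 and 6.21 for TFF1 and TFF2 in YAPS127A cells. Whether TFF3 was at a background level was not tested. A lack of response and a starting signal too low to fall thus cannot be told apart for TFF3. The difference between TFF1 and TFF3 in their log2 change was -1.56 (95% interval -1.91 to -1.21), that between TFF1 and TFF2 was -0.95 (-1.12 to -0.78), and that between TFF2 and TFF3 was -0.61 (-1.05 to -0.16). Each had p = 0.00794 in a 2-sided exact permutation test on the per-array difference of the 2 signals, the smallest that 5 against 4 arrays allow. Over the 7 pairs tested this way, chosen after the values were seen, the adjusted p was 0.00926 for each of these. It does not adjust for other pairs that could have been chosen.

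Of the transmembrane mucins, 3 of 4 fell at every one of their probe sets, and MUC4 was called at none. MUC1, which lines the apical surface of most secretory epithelia and has a cytoplasmic tail that binds signalling proteins, had signals of 8.17, 7.87, 7.76, 7.88 and 8.09 at its brightest probe set in YAPS127A cells, against 8.70, 9.07, 9.11 and 9.16 in empty vector cells. The lowest empty vector array stood well above the highest YAPS127A array. The mean was 7.95 ± 0.17 (SD, n = 5) in YAPS127A cells, against 9.01 ± 0.21 (SD, n = 4) with the empty vector (difference -1.06, SE 0.11, limma adjusted p = 3.23e-05).

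The other MUC1 probe sets moved the same way but by different amounts. At 207847_s_at the log2 difference was -1.20 (SE 0.10, limma adjusted p = 3.71e-06), and at 211695_x_at it was -0.71 (SE 0.11, limma adjusted p = 0.000675). Neither showed overlap between the groups. In such names the suffix s marks probes shared by several transcripts, and the suffix x marks probes that partly match other sequences as well.

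MUC16, a very large cell surface mucin whose shed form is a serum tumour marker and which binds mesothelin, has 1 probe set. Its signals were 6.33, 6.20, 5.75, 6.10 and 6.25 in YAPS127A cells, against 7.35, 7.20, 7.26 and 7.09 in empty vector cells. YAPS127A replicate 3 was the lowest array, and all 5 lay below the 4 empty vector arrays. The mean was 6.12 ± 0.23 (SD, n = 5) in YAPS127A cells, against 7.23 ± 0.11 (SD, n = 4) with the empty vector (difference -1.10, SE 0.11, limma adjusted p = 2.13e-05).

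MUC13, a short transmembrane mucin of gut and biliary epithelium with EGF-like domains, had signals of 6.09, 6.26, 5.84, 6.07 and 6.08 in YAPS127A cells, against 6.69, 6.99, 7.08 and 7.02 in empty vector cells. All 5 YAPS127A arrays lay below the 4 empty vector arrays. The log2 difference was -0.87 (SE 0.10, 95% interval -1.09 to -0.65, limma adjusted p = 5.70e-05). Its second probe set, 222712_s_at, differed by -0.75 (SE 0.11, limma adjusted p = 0.000508), at a signal below the median of all probe sets.

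MUC4, a membrane mucin that can associate with the receptor ERBB2, has 6 probe sets, and none was called. At the brightest, 235055_x_at, signals were 6.23, 6.12, 6.16, 5.92 and 6.35 in YAPS127A cells, against 6.21, 5.99, 6.39 and 6.16 in empty vector cells. The groups covered almost the same range. Over the 6 probe sets the log2 differences ran from -0.08 to 0.06, and at the brightest the 95% interval was -0.25 to 0.19 (limma adjusted p = 0.884). The mean signals of the other 5 probe sets were below the median of all probe sets. Set against MUC4 array by array, the change of MUC16 was lower by a log2 difference of -1.07 (95% interval -1.40 to -0.74), that of MUC1 by -1.03 (-1.36 to -0.70) and that of MUC13 by -0.84 (-1.20 to -0.49). Each had an exact permutation p = 0.00794 and an adjusted p = 0.00926 over the 7 pairs. These pairs were chosen after the values were seen, so the p-values are no evidence separate from the falls themselves. The empty vector mean of MUC4 was 6.19, beside 6.07 for MUC13 and 6.12 for MUC16 in YAPS127A cells. Whether MUC4 was at a background level was not tested. A lack of response and a starting signal too low to fall thus cannot be told apart for MUC4.

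Promoter windows of RefSeq (GRCh38.p14), from 250 bases before to 50 bases after a transcript start, were matched for 4 of the 10 genes, with 6 windows in all. These 4 are the transmembrane mucins, and their sequences are shown to set the 3 that fell beside the 1 that was not called. Below is the window of the outermost start of each gene, written 5′ to 3′ in the direction of the gene.
MUC1 promoter, chr1:155192866-155193165, minus strand: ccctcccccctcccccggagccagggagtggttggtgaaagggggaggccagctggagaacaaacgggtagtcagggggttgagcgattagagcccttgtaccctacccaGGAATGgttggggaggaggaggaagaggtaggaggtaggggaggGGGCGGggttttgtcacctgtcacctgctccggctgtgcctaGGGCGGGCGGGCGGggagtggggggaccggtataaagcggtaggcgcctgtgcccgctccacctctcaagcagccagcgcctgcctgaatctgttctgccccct
MUC13 promoter, chr3:124934702-124935001, minus strand: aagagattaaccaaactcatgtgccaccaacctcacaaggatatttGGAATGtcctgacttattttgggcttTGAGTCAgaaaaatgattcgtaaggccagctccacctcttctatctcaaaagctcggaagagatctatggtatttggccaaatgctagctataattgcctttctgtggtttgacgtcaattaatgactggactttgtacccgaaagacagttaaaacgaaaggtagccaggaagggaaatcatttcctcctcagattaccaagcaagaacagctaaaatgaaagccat
MUC16 promoter, chr19:9065702-9066001, minus strand: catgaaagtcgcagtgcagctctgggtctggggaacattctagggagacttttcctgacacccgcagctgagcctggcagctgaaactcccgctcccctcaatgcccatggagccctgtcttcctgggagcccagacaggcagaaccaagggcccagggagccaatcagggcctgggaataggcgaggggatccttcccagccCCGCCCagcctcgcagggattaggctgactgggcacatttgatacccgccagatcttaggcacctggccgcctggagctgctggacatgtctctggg
MUC4 promoter, chr3:195811880-195812179, minus strand: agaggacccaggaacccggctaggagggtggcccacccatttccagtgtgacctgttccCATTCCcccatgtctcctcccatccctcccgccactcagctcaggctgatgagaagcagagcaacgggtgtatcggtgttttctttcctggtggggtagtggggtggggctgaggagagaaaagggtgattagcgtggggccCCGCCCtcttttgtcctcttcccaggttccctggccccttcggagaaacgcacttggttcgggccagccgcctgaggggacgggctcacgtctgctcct
Capitals mark matches, on either strand, to GGAATG (the core of the motif of TEAD factors, the DNA-binding partners of YAP1), TGAGTCA (AP-1), TGTTTAC (FOXA factors) or GGGCGG (SP1). In MUC1 the run of capitals nearest to the start holds 3 overlapping SP1 matches.

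GGAATG was found once each in the windows of MUC1 (140 bases before the start), MUC13 (204 bases before) and MUC4 (191 bases before, on the opposite strand), and not in that of MUC16. It occurs in 14.0% of all 35116 promoter windows. The match is thus present in 2 of the 3 mucins that fell and also in the 1 that was not called. TGAGTCA was found in MUC13 alone of the 4, 178 bases before the start, and occurs in 4.95% of all windows. GGGCGG was found 4 times in MUC1 and once each in MUC4 and MUC16, and occurs in 45.0% of all windows. TGTTTAC, which 3.42% of all windows hold, was in none of the 6. A match is a description of letters and not of binding.

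Of the gel-forming mucins, MUC5AC was called lower at all 4 probe sets, MUC6 at 1 of 2 and MUC5B at none. At its brightest probe set MUC5AC, the main mucin of the gastric surface and of airways, had signals of 7.33, 7.07, 7.38, 7.25 and 6.98 in YAPS127A cells, against 7.55, 7.60, 7.47 and 7.68 in empty vector cells. The groups came within 0.1 log2 units of each other without overlap. The log2 difference was -0.38 (SE 0.09, 95% interval -0.57 to -0.18, limma adjusted p = 0.00934), or 1.30-fold lower.

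At the other MUC5AC probe sets the log2 differences were -0.50 (214385_s_at, limma adjusted p = 0.0039), -0.37 (217187_at, adjusted p = 0.0202) and -0.33 (214303_x_at, adjusted p = 0.0309). The groups overlapped at the last of these, and 217187_at was below the median signal of all probe sets. The call at 214303_x_at was lost without empty vector replicate 2, 3 or 4 (adjusted p = 0.066, 0.0901 and 0.0604) or YAPS127A replicate 1, 2 or 3 (adjusted p = 0.0555, 0.0513 and 0.0563). That at 217187_at was lost without empty vector replicate 2 or 4 (adjusted p = 0.0602 and 0.0614). The brightest probe set and 214385_s_at kept their calls with any array left out.

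MUC5B, a gel-forming mucin of airways, gallbladder and bile ducts, had signals of 5.08, 5.00, 5.21, 5.13 and 5.08 in YAPS127A cells, against 4.89, 5.06, 5.36 and 4.88 in empty vector cells. The YAPS127A arrays lay inside the range of the empty vector arrays, and both of its probe sets were below the median signal of all probe sets. The log2 differences were +0.05 (SE 0.10, limma adjusted p = 0.761) and -0.10 (SE 0.07, limma adjusted p = 0.361). The change of MUC5AC was lower than that of MUC5B by a log2 difference of -0.43 (95% interval -0.78 to -0.08, exact permutation p = 0.0397, adjusted p = 0.0397 over the 7 pairs chosen after the values were seen). Whether MUC5B was at a background level, and so could not fall, was not tested.

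MUC6, the mucin of gastric glands and of peribiliary glands, gave different answers at its 2 probe sets. At 214133_at the signals were 6.48, 6.28, 6.12, 6.45 and 6.49 in YAPS127A cells, against 6.45, 6.45, 6.68 and 6.46 in empty vector cells, and the difference was -0.14 (SE 0.09, limma adjusted p = 0.32). At 1565666_s_at they were 2.99, 2.39, 2.64, 2.56 and 2.85 in YAPS127A cells, against 3.15, 2.86, 3.82 and 3.46 in empty vector cells. That probe set was called lower (difference -0.64, SE 0.18, limma adjusted p = 0.0212), but its groups overlapped and its signal lay below the lower quartile of every array (4.24 to 4.27). The call was lost without empty vector replicate 3 or 4 (adjusted p = 0.0553 and 0.0639) or YAPS127A replicate 4 (adjusted p = 0.0502).

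**Figure D2:**
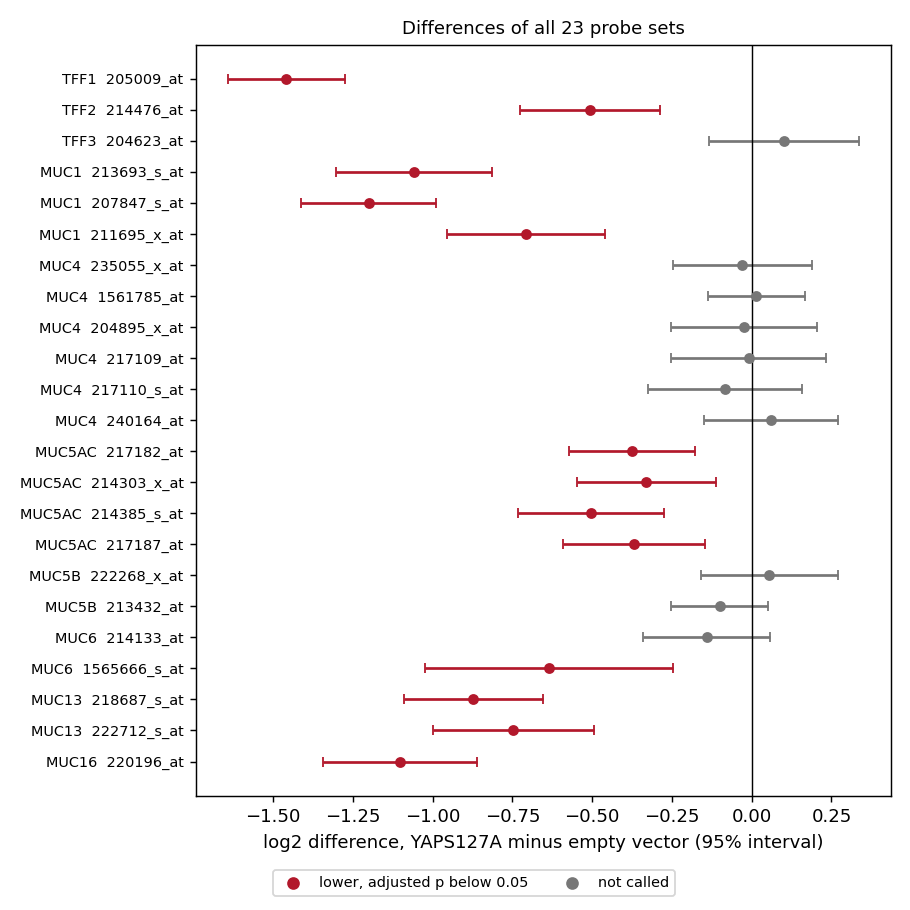
Log2 difference (YAPS127A minus empty vector) of each of the 23 probe sets with its 95% interval from limma, in red where the adjusted p was below 0.05 and in grey where it was not. All intervals in red lie below 0, and the 6 probe sets of MUC4 lie between -0.08 and 0.06.

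Neighbouring genes were examined to see whether the chromosome stretch around a gene moved with it. For each gene the median log2 difference was taken of 50 neighbouring genes, the nearest in equal numbers before and after it. Only genes with a signal above the median of all probe sets were used, with the 10 genes themselves left out. The 3 trefoil genes lie side by side on chromosome 21 and share their neighbours, which differed by -0.04 (exact permutation p = 0.0476). MUC5AC, MUC5B and MUC6 lie in one cluster on chromosome 11, with neighbours at 0.0024 to -0.0034. The neighbours of MUC1 on chromosome 1 were lower, by -0.22 (exact permutation p = 0.00794), and those of MUC16 on chromosome 19 by -0.11 (exact permutation p = 0.0159), while those of MUC13 and MUC4 on chromosome 3 were at 0.02 and 0.0017. With the neighbours' median subtracted on each array, MUC1 was at -0.84 (limma adjusted p = 0.000128), MUC16 at -0.99 (limma adjusted p = 1.07e-05) and TFF1 at -1.42 (limma adjusted p = 2.02e-07), and the same count of 13 probe sets was called lower.

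**Figure D3:**
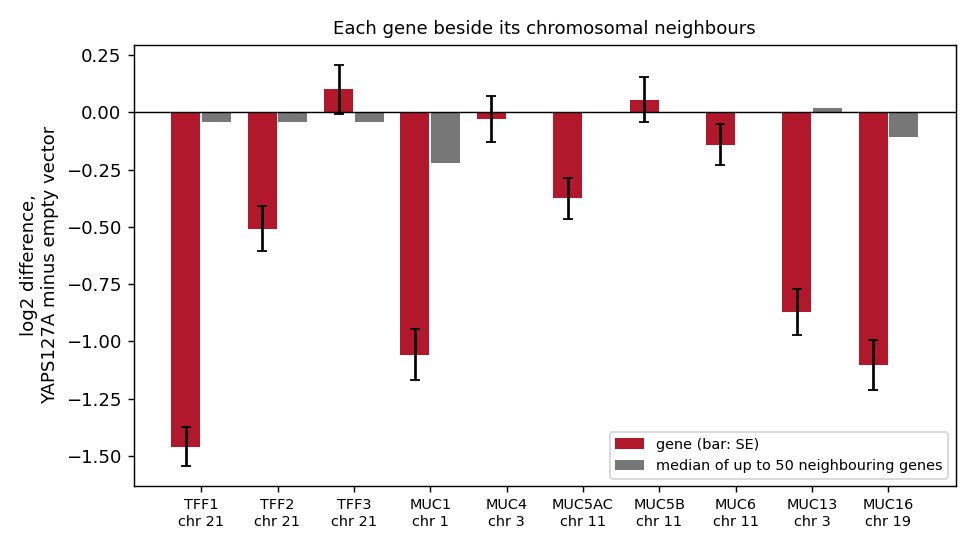
Log2 difference (YAPS127A minus empty vector) of each gene at its brightest probe set (red, error bar SE) beside the median of its neighbouring genes (grey), with the chromosome under each name. The lowest neighbour value is that of MUC1, at -0.22, against -1.06 for the gene itself.

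The genes that make, pack, bind and shed mucins were described from lists chosen with earlier results of these data known. Each gene was taken at its brightest probe set. Beside the counts below, 14.2% of all genes were called lower and 14.5% higher. With only the 27306 probe sets above the median signal tested, 12071 were called in either direction. Above that median lay 17 of 21 glycosylation enzymes, 13 of 17 folding and secretion genes and 11 of 15 transcription factors. So did 10 of 14 binding partners and 5 of 8 proteases. No list was tested for an excess of calls. Of 8 other mucins on the arrays, 1 was called lower, 0 higher and 7 were not called (median log2 difference -0.0070). Only 2 of the 8 had a signal above the median of all probe sets, so most may not be expressed. The one that fell was MUC20, a transmembrane mucin next to MUC4 on chromosome 3, at 8.80 ± 0.15 (SD, n = 5) in YAPS127A cells, against 9.65 ± 0.22 (SD, n = 4) with the empty vector (difference -0.85, limma adjusted p = 0.00014). A near-identical pseudogene copy of MUC20 exists, so its probe sets may read both. MUC2, the gel-forming mucin of intestine, had 4.68 ± 0.12 (SD, n = 5) in YAPS127A cells, against 4.82 ± 0.19 (SD, n = 4) with the empty vector, and was not called (limma adjusted p = 0.367).

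Enzymes of mucin-type O-glycosylation moved both ways. Of 21 on the arrays, 7 were called lower, 4 higher and 10 were not called, with a median log2 difference of 0.06. GCNT1, which builds branched core structures, fell (-0.55, limma adjusted p = 7.46e-05), as did GALNT12, which adds the first sugar (-0.62, limma adjusted p = 0.000451), and FUT2, which adds the fucose of secretor-type antigens (-0.48, limma adjusted p = 0.00196). C1GALT1, which makes the common core structure, rose by 0.41 (limma adjusted p = 0.00201). FUT2 was called at 1 of its 2 probe sets, and their mean differed by -0.25. Taken as the mean over the probe sets of a gene, and so with 19775 in place of 54613 tests to adjust for, 6 were called lower and 8 higher. With the neighbours' median removed, 6 were called lower and 5 higher, with 2 calls lost and 2 gained. The lost ones were GALNT2, another enzyme that adds the first sugar (-0.03, limma adjusted p = 0.791), and B3GNT6 (0.17, limma adjusted p = 0.1). Those gained were ST6GALNAC1 (0.48, limma adjusted p = 0.0243) and ST3GAL1 (0.27, limma adjusted p = 0.00966), both higher.

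Among 17 genes of mucin folding, packaging and secretion, 6 fell, 1 rose and 10 were not called (median -0.11). CREB3L1, a membrane-bound transcription factor of secretory capacity, fell to 7.55 ± 0.09 (SD, n = 5) in YAPS127A cells, against 8.67 ± 0.10 (SD, n = 4) in empty vector cells (difference -1.13, limma adjusted p = 5.46e-07). FCGBP, a mucus protein that forms heteromers with TFF3, fell to 5.78 ± 0.16 (SD, n = 5) in YAPS127A cells, against 6.88 ± 0.08 (SD, n = 4) in empty vector cells (difference -1.10, limma adjusted p = 2.86e-06). The neighbours of CREB3L1 and FCGBP lay lower too, at -0.29 and -0.20, and with those medians removed the genes were at -0.84 and -0.91. ERN1, a sensor of unfolded protein in the endoplasmic reticulum, fell (-0.79, or -0.49 averaged over its 3 probe sets), and so did SYTL2, a regulator of secretory vesicles (-0.78). XBP1, a transcription factor of the same stress pathway, was the 1 that rose, by 0.49 (limma adjusted p = 0.0033), at 1 of its 2 probe sets, whose mean differed by 0.25. QSOX1, a sulfhydryl oxidase of the secretory pathway, was among the 6 that fell (-0.27), but with its neighbours' median removed it was at -0.03 (limma adjusted p = 0.801). That removal left 6 of the 17 called lower and 2 higher, with 1 call lost and 2 gained. AGR2, a disulfide isomerase needed for mucin production, had 12.94 ± 0.14 (SD, n = 5) in YAPS127A cells, against 13.06 ± 0.06 (SD, n = 4) with the empty vector and was not called (limma adjusted p = 0.362).

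Transcription factors of secretory epithelium fell in 7 of 15 cases and rose in 0, with 8 not called and a median of -0.25. FOXA1, a forkhead factor of endodermal epithelia, fell to 6.69 ± 0.19 (SD, n = 5) in YAPS127A cells, against 8.21 ± 0.07 (SD, n = 4) in empty vector cells (difference -1.52, limma adjusted p = 4.72e-07). The call was made at 1 of its 2 probe sets, and their mean differed by -0.98. The epithelial ETS factors EHF (-0.72, limma adjusted p = 3.57e-06) and ELF3 (-0.66, limma adjusted p = 8.79e-06) fell at all their probe sets, with a mean over the 6 probe sets of EHF of -1.30, and FOXA3 fell by 0.59 (limma adjusted p = 0.000131). Neighbours of EHF and ELF3 lay lower too, at -0.37 and -0.21, and with those medians removed the genes were at -0.34 and -0.46. SPDEF, a driver of goblet cell differentiation, was not called (-0.29, limma adjusted p = 0.0506). With the neighbours' median removed, 8 of the 15 were called lower, with 3 calls gained, SPDEF among them (-0.30, limma adjusted p = 0.0276), and 2 lost. The lost ones were SOX9, a factor of bile duct cells (-0.25, and -0.13 with neighbours removed, limma adjusted p = 0.22), and the oestrogen receptor ESR1 (-0.40, and -0.05 with neighbours removed, limma adjusted p = 0.775). ESR1 was called at 1 of its 9 probe sets, whose mean differed by -0.03.

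Receptors and binding partners moved in both directions, with 5 of 14 lower, 4 higher and 5 not called (median -0.09). ACKR3, a chemokine receptor proposed to mediate effects of trefoil peptides, had 4.57 ± 0.22 (SD, n = 5) in YAPS127A cells, against 7.38 ± 0.31 (SD, n = 4) with the empty vector (difference -2.81, limma adjusted p = 1.10e-07), called at 1 of its 3 probe sets, whose mean differed by -1.02. Mesothelin (MSLN), the ligand of MUC16, went the opposite way to MUC16, at 7.72 ± 0.20 (SD, n = 5) in YAPS127A cells, against 6.54 ± 0.03 (SD, n = 4) with the empty vector (difference 1.17, limma adjusted p = 4.26e-06). Its neighbours on chromosome 16 lay higher by 0.28, and without their median it differed by 0.89 (limma adjusted p = 6.88e-06). CXCR4, a chemokine receptor linked to TFF2, rose by 0.35 (limma adjusted p = 0.00154), or 0.84 averaged over its 3 probe sets, and ERBB3, which pairs with ERBB2, rose by 0.37 (limma adjusted p = 0.0025) at its brightest probe set, with a mean over its 5 probe sets of 0.13 (limma adjusted p = 0.0751). With the neighbours' median removed, 3 of the 14 were called lower and 3 higher.

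Of 8 proteases that can shed membrane mucins, 1 fell, 1 rose and 6 were not called (median -0.02). The one that fell was matrilysin (MMP7), at 8.81 ± 0.14 (SD, n = 5) in YAPS127A cells, against 11.65 ± 0.08 (SD, n = 4) with the empty vector, a 7.17-fold fall (limma adjusted p = 1.05e-09). The one that rose was the membrane-type metalloprotease MMP14 (0.35, limma adjusted p = 0.00205). ADAM17, a sheddase of MUC1, differed by -0.17 (limma adjusted p = 0.0613).

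**Figure D4:**
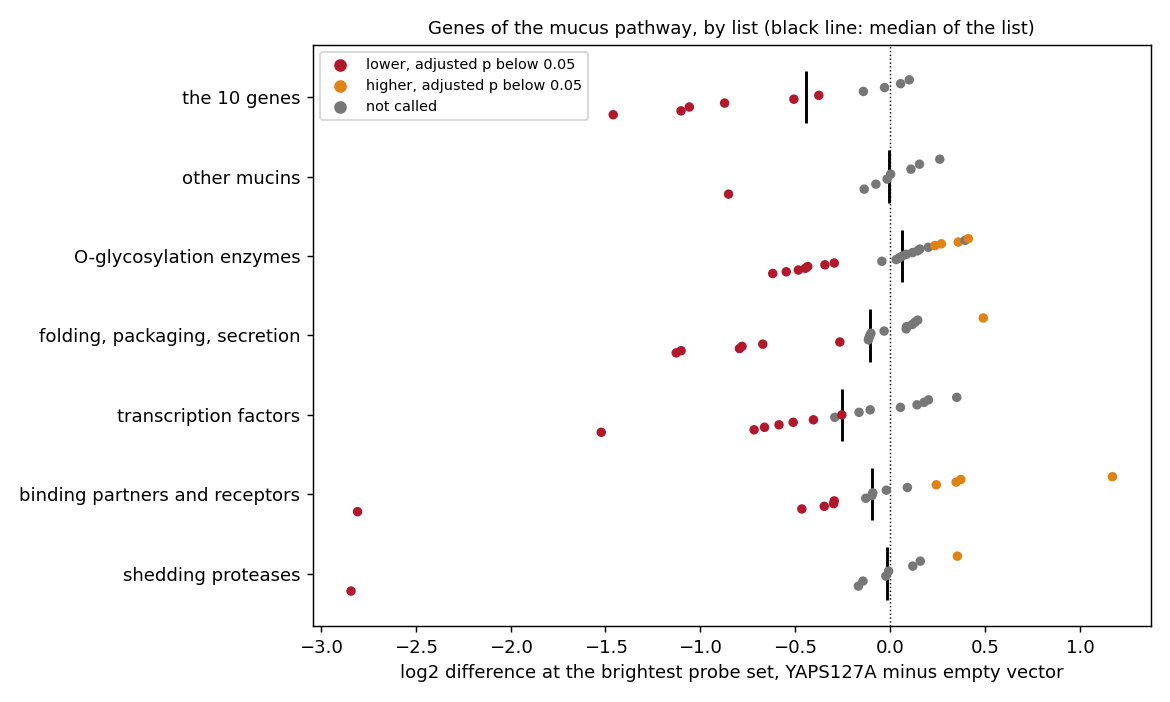
Log2 difference (YAPS127A minus empty vector) of each gene at its brightest probe set, by list, in red where called lower, orange where called higher and grey where not called, with the median of each list as a black line. The 10 genes have a median of -0.44 and those of the 6 lists lie between -0.25 and 0.06.

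The genes whose profiles over the 9 arrays lay closest to that of TFF1 were ARL14, PRUNE2 and RGS2. Their root mean square distances from it were 0.125, 0.125 and 0.13 log2 units, with each profile taken relative to its empty vector mean. They lie on chromosomes 3, 9 and 1 and differed by -1.45, -1.41 and -1.49. Since they were picked for closeness to TFF1, differences near its own follow from that choice and are no separate evidence.

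Markers of biliary epithelium, the labelled origin of the line, had high signals in both groups. KRT19 was at 14.21 ± 0.10 (SD, n = 5) in YAPS127A cells, against 14.19 ± 0.10 (SD, n = 4) with the empty vector, and neither it nor EPCAM was called. Among 4 such markers, SOX9 was called lower (-0.25). Markers of goblet or gastric mucous cells were called in 1 of 6 cases, with GKN1 lower (-0.35, limma adjusted p = 0.0257). Only 1 of these 6 had a signal above the median of all probe sets. Of 4 hepatocyte, 4 immune and 3 endothelial markers, 0, 1 (CD14, lower) and 0 were called. Of 6 fibroblast markers, LUM rose by 1.45 and COL1A1 fell by 0.70, and COL1A2, COL3A1, DCN and PDGFRB had signals below the median of all probe sets and were not called. The summed log2 signal of the 6 was 35.9 to 36.7 in YAPS127A cells and 34.7 to 35.8 in empty vector cells, and any part of it in the results above was not tested. The gap between the 3′ and 5′ actin control signals, a measure of RNA quality, was 0.888 to 1.58 log2 units in YAPS127A cells and 0.985 to 1.69 in empty vector cells (exact permutation p = 0.444), and the median signal of the arrays lay between 5.95 and 5.97.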

How the data were processed

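Biotin-labelled material amplified from total RNA of HuCCT1 cells was hybridised, 1 sample to an array, per the labels' protocols. The deposited values are taken as log2 signals from their range, since no header states the unit. Array medians were nearly equal, so no scaling was added, and the sources used here do not name the authors' normalization. There were 0 columns of other samples.

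Setting aside 62 control probe sets left 54613 for testing. By the platform annotation 41091 stand for 1 gene, 1801 for several and 11721 for no gene, and 41037 symbols were updated through gene IDs (RefSeq, GRCh38.p14). CXCR7 is listed as ACKR3. GALNT4 and CD68 share probe sets with other genes and were left out, and MUC21, HNF4A, GKN3P and F2RL1 were not analysed here.

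The comparison used lmFit and eBayes of limma 3.58.1 in R 4.3.3, without covariates, and adjusted p-values (Benjamini-Hochberg, 2-sided) over all probe sets, with 11.4 total degrees of freedom. The 95% intervals come from the same fit. The number of arrays limits precision. In simulated data for this comparison (54613 probe sets, 50 changed by each size), the fit recovered 3 of 50 at a log2 size of 0.25, 21 at 0.5, 42 at 1 and 50 at 2, and called 3 unchanged probe sets. Far fewer probe sets changed there than were called in the data (13052 of 54613), which makes the adjusted threshold stricter. The recovered counts therefore do not measure what the real comparison can detect. Single values and pairs of genes were tested by exact permutation, 2-sided, with intervals of pair differences from the spread of the arrays.

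Members, lists and tests were chosen with earlier results of these data known. The genes named are the members, up to 4 called genes per list by p-value, those completing short counts, and the 3 profiles nearest to TFF1. YAP1, MUC2, AGR2, SPDEF, ADAM17, KRT19, EPCAM and the called markers were named after their values were seen. So were GALNT2, QSOX1 and other list genes whose calls changed under an alternative. Alternatives were quantile normalization, median centring, a filter on dim probe sets, trend and robust eBayes, weights for arrays, a block for the replicate number, the actin gap as covariate, subtraction of the neighbours' median, each array left out, and averages over the probe sets of a gene. The tests of pairs, and leaving out both arrays with the widest actin gap, were added after seeing the data. Figures were drawn with matplotlib 3.10.9 (Python 3.11.15).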

Additional observations from a re-analysis of the deposited data

Results flagged for a closer look

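A single array stood apart from the others of its group, by Dixon's test, in 3 of the 46 groups of arrays examined (23 probe sets, 2 groups each). Chance marks about 1 in 20 such groups.

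TFF1 had a log2 signal of 7.45 on empty vector replicate 1, below the other 3 empty vector arrays, which lay between 7.74 and 7.80. It was still above all YAPS127A arrays, and without that array the log2 difference of TFF1 was -1.54.

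MUC5AC had 5.98 at 214385_s_at on YAPS127A replicate 2, below the other 4 YAPS127A arrays (6.24 to 6.31), and without it the difference was -0.45. MUC6 had 6.68 at 214133_at on empty vector replicate 3, above the other 3 empty vector arrays (6.45 to 6.46), and without it the difference was -0.09, still not called.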

How the results depend on the processing

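Over 18 alternatives, 403 values of the 23 probe sets were recomputed. Of these, 387 stayed on the same side of the threshold, 16 lost their call, 0 gained one and 0 called values changed sign. All probe sets of TFF1, TFF2, MUC1, MUC13 and MUC16 kept their calls, with log2 differences of -1.54 to -1.42 for TFF1, -0.59 to -0.42 for TFF2, -1.16 to -0.84 for MUC1, -0.96 to -0.81 for MUC13 and -1.15 to -0.99 for MUC16 at the brightest probe set. Between 10 and 13 probe sets were called lower, and 0 higher, under each alternative, with 10 to 13 when 1 array was left out. Leaving out dim probe sets removed 11 of the 23 from the test. The lost calls were those of MUC5AC and MUC6 given above, with the call at 214303_x_at also lost with the actin gap as covariate (adjusted p = 0.0585) and without both arrays with the widest gap (adjusted p = 0.134), and that at 217187_at without those arrays (adjusted p = 0.0545). Among probe sets that were not called, 15 values changed sign. With the mean over the probe sets of a gene, which also cuts the tests adjusted for to 19775, 7 of the 10 genes were called lower (MUC6 added), 8 glycosylation enzymes were called higher, and 1 other mucin was called higher. That mucin, MUC19, has 1 probe set, with low means (2.85 in YAPS127A cells, 2.59 with the empty vector) and an unchanged difference of 0.26. Its adjusted p moved from 0.0531 to 0.0297 because limma was fitted anew and the adjustment ran over genes, not because its values changed. The same holds for the enzyme ST6GALNAC1 (from 0.0618 to 0.0408), which also has 1 probe set.

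With the replicate number as a block, 10306 of all probe sets were called, against 13052 without it, and 11 of the 23, with MUC5AC at 217182_at (-0.32, adjusted p = 0.0521) and 214303_x_at (-0.36, adjusted p = 0.0853) no longer called. Deviations from the group means of arrays with the same number correlated at -0.25, 0.04, 0.0070 and 0.03, so the numbers are not taken to pair the samples, and 0 of 4 YAPS127A arrays correlated best with their own number. The deposited values give no detection call, so how far a signal lies above background is unknown for called and uncalled genes alike. The levels of TFF1, TFF2, MUC13 and MUC16 in YAPS127A cells were close to the median of all probe sets.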
